A study of Mus musculus with 71 samples.

Results

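Solute carriers (SLC genes) encode the membrane proteins that move amino acids, sugars, ions, metals, vitamins and mitochondrial substrates across membranes. Their RNA was measured here in mouse oocytes made in culture, in oocyte-like cells induced directly from stem cells, and in oocytes taken from ovaries. The members were all genes whose symbol begins with Slc and a number, leaving out Slc2a1, that reached 5 TPM, a level scaled by transcript length and library total, in at least 2 libraries. This gave 199 members of 285 Slc genes and of 15140 genes in all. The other 86 Slc genes lay below the rule. The nearest of them by their second-highest TPM were Slc1a3 at 4.73, Slc10a4 at 4.59 and Slc16a12 at 4.45. Just inside were Slc22a28 at 5.01 and Slc14a2 and Slc25a34 at 5.2 each. Because the rule used TPM of these same libraries, counts of members are given as a description beside the same count over all genes. The genes tested needed only 1 TPM in 2 libraries, a lower bar than that of members. The symbols of 3 members are not those of carriers: Slc9a3r1, Slc9a3r2 and Slc4a1ap encode a pair of scaffold proteins and kanadaptin.

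All cells came from C57BL/6 X 129 mice or stem cells of that background. The in vitro oocytes carried the Blimp1-Venus and Stella-CFP reporters, grew in ovaries rebuilt from stem-cell-derived germ cells and embryonic gonadal somatic cells, and were sorted for Stella-CFP. They were collected after 11 days from knockouts of Lhx8, Figla, Stat3 and Sub1 and from wild type (WT), with 2 libraries in each group. After 13 days they were collected from knockouts of Nobox, Sohlh1, Tbpl2, Dynll1, Ybx3, Ccnk, Kdm1b, Thap7, Noto, Foxr1, Mef2b, Sfr1, Hes6, Ell3 and Tcf25 and from WT, again with 2 libraries each. The labels do not say how many clones a knockout comes from. Directly induced oocyte-like cells (DIOLs) came from stem cells of the genotype labelled MGA8 and were cultured with the stabilising ligand Shield1. There were 2 libraries for each of days 1, 3, 5, 7 and 14 of the series labelled DIOLs.S and days 5, 10, 15 and 25 of the series labelled DIOLs. The labels do not say how these series differ. Another 2 libraries held DIOLs at metaphase II (MII), the stage of the mature egg, which per the protocol had been aggregated with gonadal somatic cells. Oocytes at the germinal vesicle (GV) stage, before meiosis resumes, came from ovaries with the same reporters: 3 libraries were labelled competent and 3 incompetent for that resumption. The table's column names add 3w for the competent and 2w for the incompetent group, which the labels do not explain. If these are ages in weeks, age and competence cannot be told apart. No label says that replicates came from separate cultures or animals, so p-values measure the spread between libraries, which may be technical.

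Depth is not recorded in TPM. Between 8011 and 10596 genes reached 1 TPM in a library, and between 99 and 152 members reached 5 TPM. Replicates correlated at 0.967 to 0.998 over all genes except in the Sohlh1 knockout, where the value was 0.873 and, over members, 0.788. Of 19 targeted genes 12 could be measured, and 11 were lower in every library of their own knockout. Nobox, Figla, Ybx3, Noto, Foxr1, Mef2b and Tcf25 could not be measured, so the loss of these targets rests on the labels. Ccnk was at 171 ± 10.5 TPM in the libraries labelled Ccnk knockout and 168 ± 5.6 in WT (SD, n = 2 each), so their direction rests on the label alone. Sub1 was at 330 ± 20.4 TPM in the libraries labelled Sub1 knockout and 464 ± 24 in WT of day 11. Thap7 was at 101 ± 5.6 TPM in its knockout and 171 ± 8.5 in WT of day 13, and Sfr1 at 426 ± 17 and 804 ± 5.5. These 3 targets were lower in both knockout libraries but were still well expressed there. Other targets kept RNA too, among them Kdm1b at 198 ± 19 TPM in its knockout and 1008 ± 23 in WT. Ell3 was at 105 ± 10.6 TPM in its knockout and 305 ± 24 in WT. Markers of granulosa and gonadal somatic cells (11 of 15 measured) summed to 38.5 ± 0.6 TPM in WT of day 13 and 1018 ± 37 in WT of day 11. In these bulk libraries fewer cells of a type and less RNA per cell cannot be told apart.

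A growing oocyte does not feed itself alone. It receives many amino acids, pyruvate and nucleotides through junctions with granulosa cells, and takes up others with carriers of its own. In mouse oocytes and early embryos glycine enters through GLYT1, encoded by Slc6a9, and also serves to set cell volume. Zinc accumulates during meiotic maturation through the importers ZIP6 and ZIP10, encoded by Slc39a6 and Slc39a10, and its release after fertilisation is part of egg activation.

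Promoter windows of 4 members are shown because these genes were low in several knockouts and rose in DIOLs. Each window runs from 250 bases before to 50 after a transcription start of RefSeq (GRCm38.p6, 300 bases, 5′ to 3′). Where a gene had several windows, the one shown ends within the most transcripts of the GENCODE M21 annotation. Slc45a3 lies at chr1:131970359-131970658 on the plus strand, Slc6a9 at chr4:117849100-117849399 on the plus strand, Slc30a3 at chr5:31108195-31108494 on the minus strand and Slc25a48 at chr13:56438105-56438404 on the plus strand. Capitals mark TAATTG or TAATTA, the homeobox-type letters TGATTG, the TATA-box letters TATAAA, all on either strand, and the E-box CANNTG, which reads alike on both.
Slc45a3: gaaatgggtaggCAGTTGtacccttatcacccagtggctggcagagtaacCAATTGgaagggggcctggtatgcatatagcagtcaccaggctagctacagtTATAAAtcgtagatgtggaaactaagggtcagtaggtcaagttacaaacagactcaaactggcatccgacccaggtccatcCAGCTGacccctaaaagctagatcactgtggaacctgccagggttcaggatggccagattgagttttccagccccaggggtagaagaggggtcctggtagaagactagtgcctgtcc
Slc6a9: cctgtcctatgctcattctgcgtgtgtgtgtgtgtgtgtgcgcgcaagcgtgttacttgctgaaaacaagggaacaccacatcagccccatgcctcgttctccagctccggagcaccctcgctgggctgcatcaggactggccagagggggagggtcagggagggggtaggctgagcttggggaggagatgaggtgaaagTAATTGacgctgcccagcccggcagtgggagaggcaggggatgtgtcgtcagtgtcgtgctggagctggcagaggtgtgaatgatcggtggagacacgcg
Slc30a3: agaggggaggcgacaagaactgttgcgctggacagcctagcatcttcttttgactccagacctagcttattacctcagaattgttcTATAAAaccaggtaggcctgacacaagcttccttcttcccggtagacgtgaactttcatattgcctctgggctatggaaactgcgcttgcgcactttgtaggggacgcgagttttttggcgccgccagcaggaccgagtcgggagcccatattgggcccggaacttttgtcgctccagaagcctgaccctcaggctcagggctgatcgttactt
Slc25a48: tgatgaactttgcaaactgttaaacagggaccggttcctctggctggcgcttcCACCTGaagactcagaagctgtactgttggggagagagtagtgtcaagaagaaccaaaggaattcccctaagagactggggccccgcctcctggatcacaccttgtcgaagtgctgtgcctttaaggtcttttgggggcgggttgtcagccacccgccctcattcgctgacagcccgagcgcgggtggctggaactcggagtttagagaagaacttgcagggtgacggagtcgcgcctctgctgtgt

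The Slc45a3 window held CANNTG at 238, 200 and 67 bases and TATAAA at 148 bases before the start. TAATTG stood 50 bases before the start of Slc6a9, TATAAA 164 bases before that of Slc30a3, and CANNTG 197 bases before that of Slc25a48. CANNTG occurred in 75.8% of the 153 members with a window and in 75.0% of 27025 genes, counting a gene when any of its windows held it. TAATTG or TAATTA occurred in 9.8% of members and 14.2% of genes, TGATTG in 12.4% and 16.0%, and TATAAA in 9.8% and 15.7%. Among members lower in the Nobox knockout, 13 of 16 with a window held CANNTG and 1 of 16 held TAATTG or TAATTA.

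Mitochondrial carriers held the highest levels in sorted WT oocytes, whereas other carriers led in GV oocytes. Slc25a3, the mitochondrial phosphate carrier, ranked first among members, at 637 ± 2.9 TPM in WT of day 13 and 974 ± 12 TPM in WT of day 11 (SD, n = 2 each). Slc25a39, needed for mitochondrial glutathione, followed at 376 ± 15 and 349 ± 30.02 TPM. Slc25a1, the citrate carrier, came next at 313 ± 13 and 247 ± 1.8 TPM. In incompetent GV oocytes Slc45a3, known as prostein, led with 2304 ± 109.6 TPM (SD, n = 3). After it came Slc30a3, a zinc transporter of synaptic vesicles, at 799 ± 6.9 TPM and Slc25a48, a mitochondrial carrier linked to choline, at 471 ± 12 TPM. Slc39a6 stood at 392 ± 42 TPM, Slc6a9 at 327 ± 20.4 TPM and Slc6a7, the brain proline transporter, at 264 ± 11 TPM. By day 25 of DIOLs Slc30a3 led at 602 ± 32 TPM, with Slc6a9 at 361 ± 13 TPM and Slc25a48 at 330 ± 15 TPM (SD, n = 2 each).

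Between day 11 and day 13 of WT culture more members fell than rose. Genes were called at a limma adjusted p under 0.05 (Benjamini-Hochberg) and a log2 change of 1 or more either way, on the log2(TPM + 1) scale. In WT of day 13 against WT of day 11, 12 members were higher and 40 lower of 195 tested, beside 22% of all genes called, 5.5% higher and 16.5% lower. Classes of carriers were set by Slc family number, not by the substrate of each member. The monocarboxylate class thus holds Slc16a10, a carrier of aromatic amino acids, and the amino acid class holds the serotonin transporter Slc6a4. Amino acid carriers had 1 higher and 5 lower of 28, and nucleotide sugar carriers 0 higher and 5 lower of 17. Zinc and other metal carriers had 0 higher and 6 lower of 28, and monocarboxylate carriers 0 higher and 2 lower of 9. The median log2 change was -0.424 for members and -0.243 for all genes. After rescaling by the median of ratios, which takes out a shift of the whole scale of -0.391 in log2, the split was 21 higher and 31 lower.

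Slc40a1, ferroportin, the iron exporter, had 4.74 and 3.09 TPM in WT of day 13, against 128.8 and 88.6 TPM in WT of day 11 (log2 change -4.48 ± 0.30, SE; adjusted p = 6.7e-12). Slc38a2, a sodium-coupled transporter of small neutral amino acids, had 7.41 and 10.6 TPM on day 13, against 79.6 and 104.7 TPM on day 11 (-3.22 ± 0.15, adjusted p = 8.1e-15). Slc26a7, an anion exchanger, was listed at 0 in both libraries of day 13, against 48.9 and 51.2 TPM on day 11. Day 13 was low for each of these genes. Changes were chosen for naming among those whose libraries do not overlap. Slc6a7 went the other way, with 241 and 237 TPM on day 13 and 40.6 and 44.7 TPM on day 11 (2.46 ± 0.26, adjusted p = 2.3e-08). Slc45a3 had 153 and 165 TPM on day 13, against 67.0 and 62.9 TPM on day 11 (1.28 ± 0.14, adjusted p = 4.3e-08). Slc9a3, a sodium and proton exchanger, had 26.3 and 18.5 TPM on day 13 and 2.47 and 1.42 TPM on day 11 (2.99 ± 0.32, adjusted p = 3.8e-08). Day 13 was high in both libraries for these 3 genes. Slc18a2, the vesicular monoamine transporter, had 6.47 and 9.35 TPM on day 13 and 72.1 and 66.0 TPM on day 11 (-2.99 ± 0.51, adjusted p = 3.5e-05). The somatic marker sum was 38.5 TPM on day 13 and 1018 TPM on day 11, and its part in the falls was not tested.

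Members were next grouped by their level in GV oocytes, which were not used in these comparisons of cultured cells. There were 105 members with a mean of at least 5 TPM in both GV groups, 42 below 1 TPM in both and 52 between. The low class cannot be read as somatic carriers alone. Slc27a2, a fatty acid carrier, belongs to it and averaged 35.1 TPM in WT of day 13. Among the in vitro groups, WT of day 13 had the lowest somatic marker sum, at 38.5 TPM. Of the members low in GV oocytes, 13 of 39 tested were lower and 0 higher in WT of day 13 against day 11, by limma. Over all genes that pass the same level rule and are low in GV oocytes, 36.2% were lower and 1.54% higher. Of the 105 members present in GV oocytes 10 were higher and 14 lower, which is 9.52% and 13.3%, against 7.72% and 9.18% of such genes. In the Nobox knockout 26 of 39 members low in GV oocytes were higher, 66.7% against 56.1% of such genes, and 1 was lower. In the Dynll1 knockout 31 of these 39 were higher, 79.5% against 67.4%, and in the Lhx8 knockout 8 were higher, 20.5% against 24.8%. These shares are a description of the classes, with no test.

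**Figure D1:**
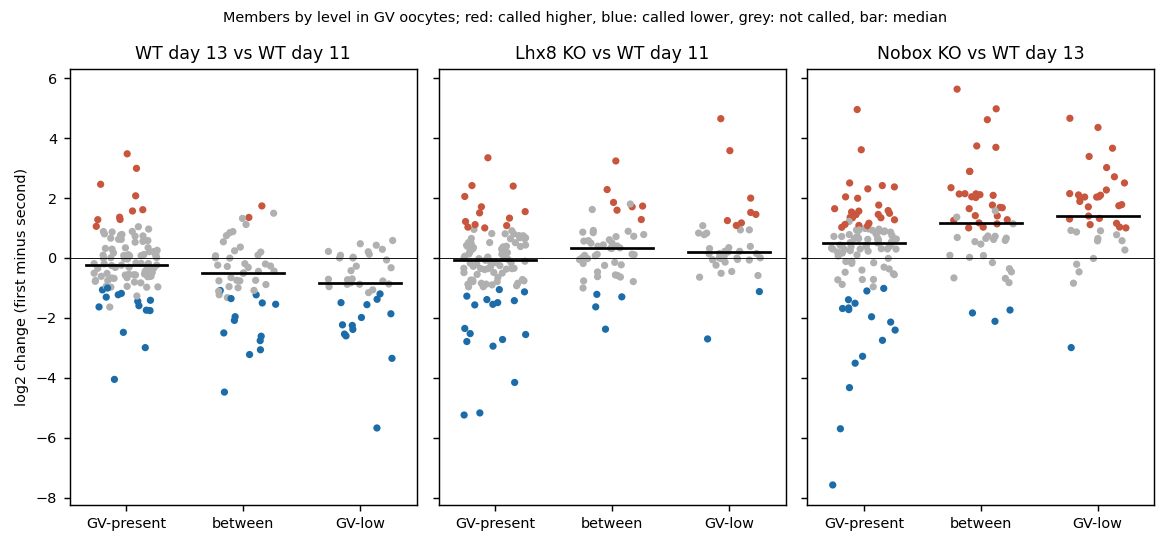
Each point is a member's log2 change (y axis, first-named group minus second) in 3 comparisons, with members split along the x axis by their level in GV oocytes. Bars are medians, red points were called higher, blue lower and grey not called; in the Nobox knockout the median of members low in GV oocytes was 1.40.

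On day 11 Slc6a7 was below 1 TPM in every knockout library, and Slc45a3 and Slc6a9 were lower than in WT in all 4 genotypes. The Lhx8 knockout, of a homeobox factor of early oocytes, had 28 members higher and 23 lower than WT of day 11, beside 21.9% of all genes called, 12.4% higher and 9.47% lower. Slc6a7 had 0.22 and 0.09 TPM in Lhx8 knockout libraries, against 40.6 and 44.7 TPM in WT (log2 change -5.24 ± 0.26, adjusted p = 6e-15). Slc30a3 had 1.26 and 4.03 TPM in the knockout, against 124 and 118 TPM in WT (-5.17 ± 0.87, adjusted p = 2.7e-05). Slc45a3 had 7.46 and 7.69 TPM in the knockout and 67.0 and 62.9 TPM in WT (-2.94 ± 0.14, adjusted p = 2.7e-15). Slc6a9 had 12.6 and 13.9 TPM in the knockout and 110.1 and 85.8 TPM in WT (-2.79 ± 0.12, adjusted p = 3.2e-16). Knockout and WT libraries were far apart for all 4 of these genes. Slc24a3, an exchanger of sodium for calcium and potassium, had 11.3 and 6.88 TPM in the knockout and 53.2 and 45.6 TPM in WT. Slc7a11, the cystine importer that supplies glutathione synthesis, had 2.31 and 1.53 TPM in the knockout and 13.8 and 18.5 TPM in WT.

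Among carriers higher in the Lhx8 knockout, Slc25a25, a mitochondrial carrier of ATP-Mg and phosphate, had 62.0 and 68.0 TPM, against 13.0 and 9.9 TPM in WT (2.42 on the log2 scale). Slc30a4, a zinc exporter, had 116 and 117 TPM in the knockout and 39.8 and 30.7 TPM in WT (1.71). Slc33a1, the acetyl-CoA transporter of the endoplasmic reticulum, had 37.2 and 45.5 TPM in the knockout and 7.13 and 11.7 TPM in WT (2.05). Slc22a21, a carnitine transporter, had 92.5 and 92.8 TPM in the knockout and 4.21 and 1.67 TPM in WT (4.65 ± 0.29). Its value is uncertain because 22.0% of its 50-base stretches occur in other genes, Slc22a5 among them. Monocarboxylate carriers had 4 members higher and 0 lower of 9 by limma, and mitochondrial carriers 7 higher and 4 lower of 29. The somatic marker sum was 1626 ± 20.3 TPM in the Lhx8 knockout and 1018 ± 37 TPM in WT, and the growing-oocyte markers (6 of 10 measured) summed to 60.5 ± 0.4 and 7351 ± 192 TPM (SD, n = 2 each). Blood and immune markers (7 of 9 measured) summed to 315.9 ± 14.5 TPM in the Lhx8 knockout and 26.3 ± 6.7 TPM in WT. Of the 7, 6 averaged at least 5 TPM in the knockout and 1 in WT, where C1qa, Ctss and Ptprc were listed at 0. The part of these markers in the changes was not tested.

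Figla, Stat3 and the libraries labelled Sub1 knockout share the WT libraries of that comparison, and their values stand beside it. The Figla knockout, of a helix-loop-helix factor that starts zona pellucida genes, had 29 members higher and 24 lower (28.1% of all genes called, 18.6% higher and 9.52% lower). The Stat3 knockout had 31 higher and 29 lower (27.3% of all genes called, 15.8% higher and 11.5% lower). The libraries labelled Sub1 knockout had 33 higher and 23 lower (22.8% of all genes called, 13.5% higher and 9.26% lower). Rescaling turned or levelled these splits, to 26 higher and 28 lower for Figla, 27 and 30 for Stat3 and 26 and 26 for Sub1. Growing-oocyte markers summed to 56.0 ± 0.6 TPM in the Figla knockout, 61.2 ± 8.0 in the Stat3 knockout and 353 ± 15 in the libraries labelled Sub1 knockout, against 7351 ± 192 TPM in WT. The somatic sums were 1072 ± 19, 1016 ± 17 and 869 ± 37 TPM in the same order, and 1018 ± 37 TPM in WT. Blood and immune markers summed to 468 ± 14 TPM in the Figla knockout, 32.4 ± 4.1 TPM in the Stat3 knockout and 26.3 ± 6.7 TPM in WT. Of the 7 measured, 6 averaged at least 5 TPM in the Figla knockout, 1 in the Stat3 knockout and 1 in WT. The part of these markers in the changes was not tested. Slc6a7 had 0.62 and 0.89 TPM in the Figla knockout and 0.06 and 0 TPM in the Stat3 knockout, and was listed at 0 in both libraries labelled Sub1 knockout. Slc45a3 had 5.43 and 8.72 TPM in the Figla knockout (-3.06), 4.09 and 2.84 in the Stat3 knockout (-3.90) and 11.0 and 10.7 in the libraries labelled Sub1 knockout (-2.48). Slc6a9 had 11.4 and 10.8 TPM in the Figla knockout (-3.03), 21.5 and 25.0 in the Stat3 knockout (-2.02) and 41.6 and 30.2 in the libraries labelled Sub1 knockout (-1.43). Of the 4 genotypes the libraries labelled Sub1 knockout kept the most Slc45a3 and Slc6a9 RNA. Slc30a3 had 6.02 and 4.07 TPM in the Figla knockout (-4.35) and 8.26 and 7.68 TPM in the Stat3 knockout (-3.76). In the libraries labelled Sub1 knockout Slc30a3 had 19.3 and 17.3 TPM (-2.65, adjusted p = 0.016). That call ended when any 1 of the 4 libraries was left out, with adjusted p of 0.053 to 0.068.

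In the Stat3 knockout Slc16a1, the lactate and pyruvate carrier MCT1, had 96.1 and 111 TPM, against 32.9 and 34.1 TPM in WT (1.6 ± 0.12, adjusted p = 2.9e-11). Slc39a10 had 79.7 and 82.5 TPM in the Stat3 knockout and 31.6 and 24.3 TPM in WT (1.51). Slc39a11, another zinc importer, had 18.3 and 12.4 TPM there and 56.2 and 79.8 TPM in WT (-2.08). Slc11a1, a metal transporter of macrophage phagosomes, had 29.1 and 46.8 TPM in the libraries labelled Sub1 knockout and was listed at 0 in both WT libraries. Slc15a3, a lysosomal peptide and histidine transporter of immune cells, had 60.0 and 56.4 TPM there and was also listed at 0 in WT. Blood and immune markers (7 of 9 measured) summed to 2628 ± 1.0 TPM in the libraries labelled Sub1 knockout and 26.3 ± 6.7 TPM in WT, and their part was not tested. Compared directly, the Lhx8 and Figla knockouts differed in 22 members, 8 higher and 14 lower in the Lhx8 knockout (11.9% of all genes called, 3.85% higher and 8.01% lower), and 11 and 11 after rescaling. The TPM of all genes analysed summed to 652833 and 650843 in the Lhx8 knockout and 707845 and 707594 in the Figla knockout. The part of this difference in the split was not tested. Slc26a7 had 55.6 and 61.7 TPM in the Lhx8 knockout and 17.9 and 14.9 TPM in the Figla knockout (1.78 ± 0.24, adjusted p = 2.1e-06). Slc7a11 had 2.31 and 1.53 TPM in the Lhx8 knockout and 10.6 and 9.0 TPM in the Figla knockout (-1.90 ± 0.23, adjusted p = 5.6e-07).

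**Figure D2:**
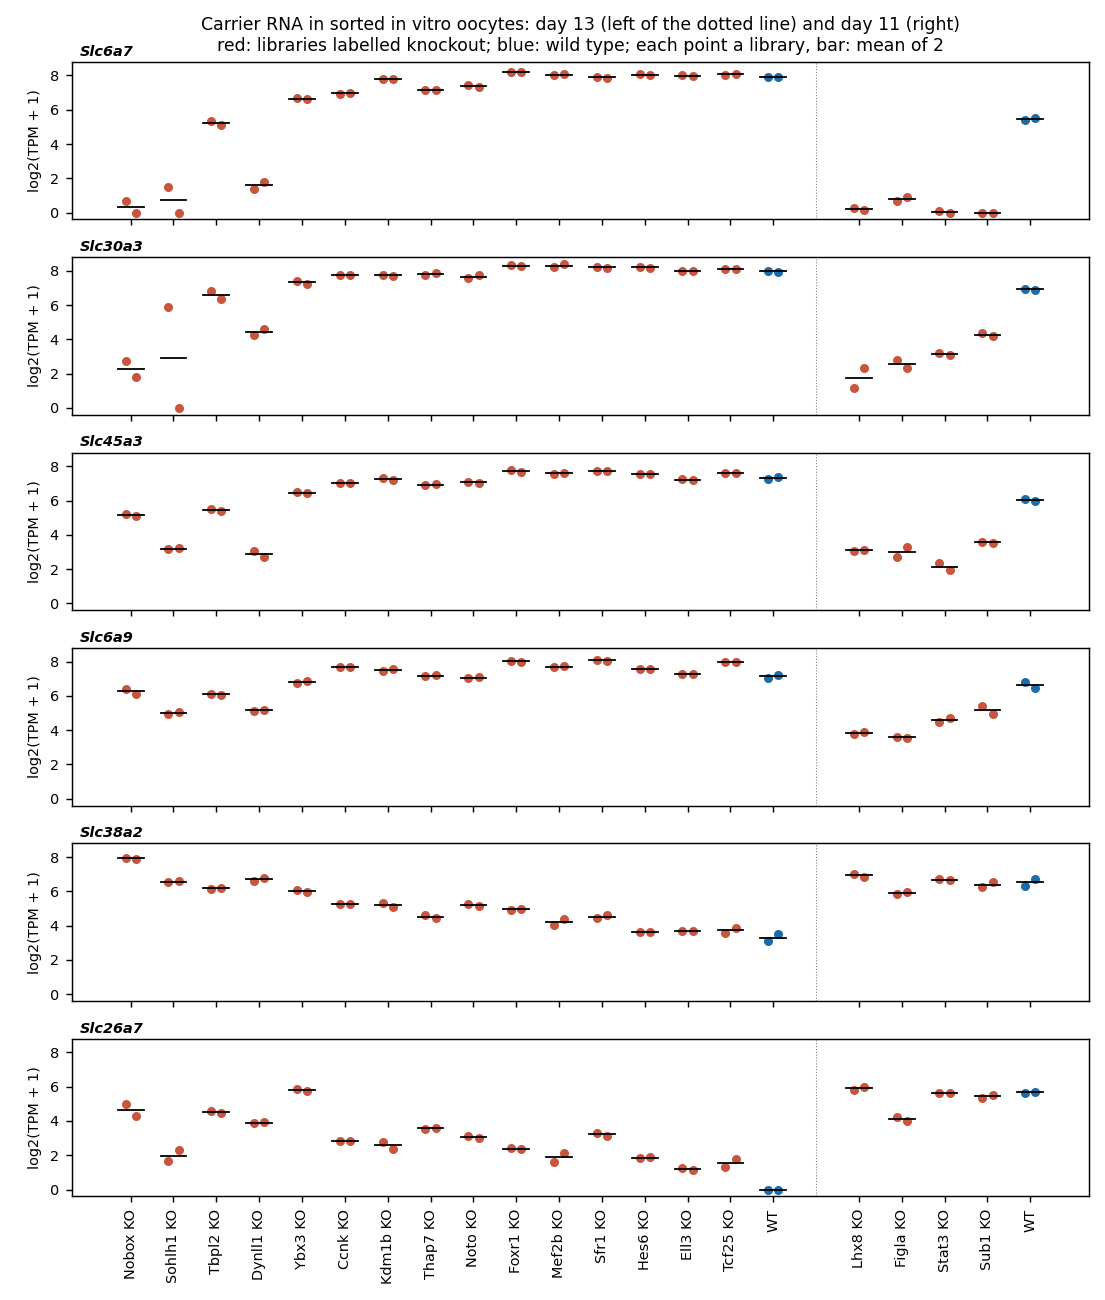
Points are single libraries and bars the mean of 2, as log2(TPM + 1), for 6 carriers in libraries labelled knockout (red) and WT (blue), day 13 left of the dotted line and day 11 right of it. Slc6a7, Slc30a3 and Slc45a3 are low in the Lhx8, Figla, Stat3, Sub1, Nobox and Dynll1 groups, while Slc38a2 and Slc26a7 are lowest in WT of day 13. In the Sohlh1 group Slc6a7 and Slc45a3 are low, and the 2 libraries lie far apart for Slc30a3.

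On day 13 the largest counts of changed carriers were in the Dynll1, Nobox, Sohlh1 and Tbpl2 knockouts, and these share the WT libraries of day 13. The Nobox knockout, of an oocyte homeobox factor, had 78 members higher and 20 lower of 195. Over all genes 38.5% were called, 30% higher and 8.5% lower. Among other genes that pass the members' level rule 42.1% were called, 32.6% higher and 9.47% lower. The split of members was 51 and 26 after rescaling, which removes a shift of 0.544. Organic ion carriers had 8 higher and 2 lower of 12, zinc and other metal carriers 14 and 2 of 28, amino acid carriers 10 and 2 of 28 and mitochondrial carriers 9 and 3 of 29. The median log2 change was 0.782 for members and 0.524 for all genes.

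Slc6a7 had 0.58 and 0 TPM in Nobox knockout libraries, against 241 and 237 TPM in WT (log2 change -7.58 ± 0.26, adjusted p = 2e-18). Slc30a3 had 5.69 and 2.47 TPM in the knockout, against 254 and 245 TPM in WT (-5.70 ± 0.87, adjusted p = 4e-06). Slc25a48 had 3.8 and 8.24 TPM in the knockout and 129.8 and 136 TPM in WT (-4.33 ± 0.52). These 3 genes were near 0 in the knockout and well above 100 TPM in WT. Slc45a3 kept more of its RNA, with 36.9 and 33.8 TPM in the knockout and 153 and 165 TPM in WT (-2.14 ± 0.14, adjusted p = 1.1e-12). Slc25a1 had 97.1 and 65.1 TPM in the knockout and 304 and 322 TPM in WT (-1.96 ± 0.16). Slc6a4, the serotonin transporter, had 2.31 and 1.44 TPM in the knockout and 18.5 and 17.7 TPM in WT (-2.75).

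In the other direction, Slc38a2 had 244 and 239 TPM in the Nobox knockout, against 7.41 and 10.6 TPM in WT (4.62 ± 0.15, adjusted p = 1.3e-18). Slc29a1, the nucleoside transporter ENT1, had 197 and 156 TPM in the knockout and 5.66 and 3.7 TPM in WT (4.98 ± 0.23, adjusted p = 1.4e-15). Slc30a2, a zinc exporter, had 68.9 and 80.4 TPM in the knockout and 1.64 and 1.24 TPM in WT (4.96 ± 0.40). The knockout libraries were high for all 3. Slc38a4, an imprinted amino acid transporter, had 54.6 and 46.8 TPM in the knockout and 2.25 and 0.95 TPM in WT (4.36 ± 0.30). Slc39a2, a zinc importer, had 24.2 and 31.2 TPM in the knockout and 0.98 and 1.55 TPM in WT (3.66). Somatic markers summed to 740 ± 7.7 TPM in the Nobox knockout and 38.5 ± 0.6 TPM in WT, and growing-oocyte markers to 849 ± 3.0 and 54582 ± 920.1 TPM (SD, n = 2 each). Their part was not tested.

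The Dynll1 knockout, of a dynein light chain, had 90 members higher and 22 lower (48.2% of all genes called, 37.7% higher and 10.4% lower). Among other genes that pass the members' level rule 51.3% were called, 39.4% higher and 11.8% lower. After rescaling the split of members was 65 and 32. Amino acid carriers had 19 higher and 4 lower of 28. Slc1a4, a transporter of alanine, serine and cysteine, had 42.1 and 36.7 TPM in the knockout and 0.29 and 0.59 TPM in WT (4.81 ± 0.35). Slc19a2, a thiamine transporter, had 38.7 and 41.0 TPM in the knockout and 3.36 and 1.95 TPM in WT (3.51). Slc43a1, a transporter of large neutral amino acids, had 26.7 and 24.7 TPM in the knockout and was listed at 0 in WT. Slc6a7 had 1.63 and 2.49 TPM in the knockout, against 241 and 237 TPM in WT (-6.31), and Slc45a3 had 7.22 and 5.51 TPM against 153 and 165 TPM (-4.45). Somatic markers summed to 399 ± 26 TPM in this knockout and 38.5 ± 0.6 TPM in WT, growing-oocyte markers to 258 ± 13 and 54582 ± 920.1 TPM, and blood and immune markers to 236 ± 0.7 and 77.8 ± 12 TPM. Of the 7 blood and immune markers measured, 6 averaged at least 5 TPM in this knockout and 1 in WT. In WT C1qa, Ctss, Spp1 and Ptprc were listed at 0. The part of all these markers was not tested.

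In the Sohlh1 knockout 50 members were higher and 35 lower (35.7% of all genes called, 22.3% higher and 13.4% lower). Its libraries stand apart, with blood and immune marker sums of 137 and 2960 TPM in order of size, not of replicate. Leaving out replicate 1 gave 101 calls and replicate 2 gave 80. After rescaling 38 members were higher and 39 lower, so the larger side turned. Growing-oocyte markers summed to 1017 ± 218 TPM in this knockout and 54582 ± 920.1 TPM in WT, and the part of these markers was not tested. Slc45a3 had 7.93 and 8.46 TPM in the Sohlh1 knockout, against 153 and 165 TPM in WT (-4.12 ± 0.14, adjusted p = 2.2e-18). Slc30a3 differed between its libraries, with 58.0 and 0 TPM, against 254 and 245 TPM in WT. Slc46a1, the proton-coupled folate transporter, had 88.1 and 86.8 TPM in the knockout and 13.3 and 9.21 TPM in WT (2.87). Slc25a48, Slc23a3 and Slc9a3 were listed at 0 in both knockout libraries. Slc11a1 had 4.41 and 23.2 TPM in the knockout libraries and was listed at 0 in WT.

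The Tbpl2 knockout, of the oocyte TBP paralogue, had 60 members higher and 20 lower (29.2% of all genes called, 22.8% higher and 6.35% lower), and 37 and 30 after rescaling. Slc6a7 had 39.8 and 33.5 TPM in the Tbpl2 knockout, against 241 and 237 TPM in WT (-2.68 ± 0.26, adjusted p = 3.5e-09). Slc25a35, an orphan mitochondrial carrier, had 9.56 and 13.4 TPM in the knockout and 55.5 and 46.6 TPM in WT (-2.07). Slc18a2 had 79.2 and 104.3 TPM in the knockout and 6.47 and 9.35 TPM in WT (3.39). Somatic markers summed to 1005 ± 46 TPM in this knockout and growing-oocyte markers to 10103 ± 9.7 TPM, and their part was not tested. Compared directly, the Nobox and Tbpl2 knockouts differed in 44 members, of which the Nobox knockout had 30 higher and 14 lower (17.1% of all genes called, 10.5% higher and 6.63% lower), and 24 and 20 after rescaling. Slc6a7 averaged 0.29 TPM in the Nobox knockout and 36.6 TPM in the Tbpl2 knockout (-4.90 ± 0.26, adjusted p = 6.9e-14). Slc30a2 had 68.9 and 80.4 TPM in the Nobox knockout and 5.27 and 2.43 TPM in the Tbpl2 knockout (4.02 ± 0.40, adjusted p = 1.1e-08).

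The Ybx3 knockout, of a cold-shock domain RNA-binding protein, had 38 members higher and 6 lower (17.9% of all genes called, 15.7% higher and 2.21% lower). Slc26a7 had 57.8 and 52.2 TPM in the Ybx3 knockout and was listed at 0 in WT. Slc4a3, a chloride and bicarbonate exchanger, had 23.5 and 24.5 TPM in the knockout and 0.97 and 0.41 TPM in WT (3.91), and Slc40a1 had 57.0 and 46.3 TPM against 4.74 and 3.09 TPM (3.43). Slc9a3 had 6.75 and 3.36 TPM in the knockout and 26.3 and 18.5 TPM in WT (-1.99). The somatic marker sum was 1416 ± 42 TPM in the Ybx3 knockout, above the other day-13 groups. Growing-oocyte markers summed to 30388.5 ± 429.2 TPM in this knockout and 54582 ± 920.1 TPM in WT. Blood and immune markers summed to 426.1 ± 9.4 and 77.8 ± 12 TPM in the same order. Of the 7 measured, 4 averaged at least 5 TPM in this knockout and 1 in WT. The part of these markers was not tested.

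The libraries labelled Ccnk knockout had 12 members higher and 2 lower (6.14% of all genes called, 5.23% higher and 0.91% lower), and 9 and 6 after rescaling. The remaining knockouts had few calls and no member called lower by limma. There were 7 higher for Kdm1b (all genes 3.19%, 3.04% higher and 0.154% lower), 6 higher for Noto (all genes 2.23%, 2.04% higher and 0.195% lower), 5 higher for Thap7 (all genes 2.74%, 2.4% higher and 0.341% lower). There were 5 higher for Foxr1 (all genes 1.88%, 1.84% higher and 0.0325% lower), 2 higher for Sfr1 (all genes 1.24%, 1.18% higher and 0.0569% lower), 2 higher for Tcf25 (all genes 0.504%, 0.366% higher and 0.138% lower). Finally there were 1 higher for Mef2b (all genes 1.08%, 1.02% higher and 0.0569% lower), 1 higher for Hes6 (all genes 0.593%, 0.528% higher and 0.065% lower), 1 higher for Ell3 (all genes 0.114%, 0.0975% higher and 0.0163% lower). At an unadjusted limma p under 0.05, in either direction, Kdm1b had 36, Noto 28, Thap7 42, Foxr1 31 and Sfr1 32 members. Tcf25 had 26, Mef2b 19, Hes6 24 and Ell3 14, and no other tool was run. The matching count over all genes was not made, so these numbers are no result about carriers. Slc38a2 had 39.7 and 33.0 TPM in the Kdm1b knockout, 36.6 and 34.6 TPM in the Noto knockout and 28.9 and 30.5 TPM in the Foxr1 knockout, against 7.41 and 10.6 TPM in WT. Over the 15 day-13 knockouts its group means ran between 11.2 TPM in Hes6 and 241 TPM in Nobox, with a median of 35.6 TPM. Slc26a7 group means ran between 1.28 TPM in Ell3 and 55.0 TPM in Ybx3, with a median of 6.13 TPM, and WT was listed at 0. Somatic markers summed to 54.4 ± 3.7 TPM in the Ell3, 207 ± 11 in the Foxr1, 211 ± 4.7 in the Noto, 382 ± 14 in the Kdm1b, 740 ± 7.7 in the Nobox and 1416 ± 42 TPM in the Ybx3 knockout, against 38.5 ± 0.6 TPM in WT, the lowest of the day-13 groups. Their part in these ranges was not tested. Since all 15 were set against the same 2 WT libraries, a low value there would raise every difference.

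**Figure D3:**
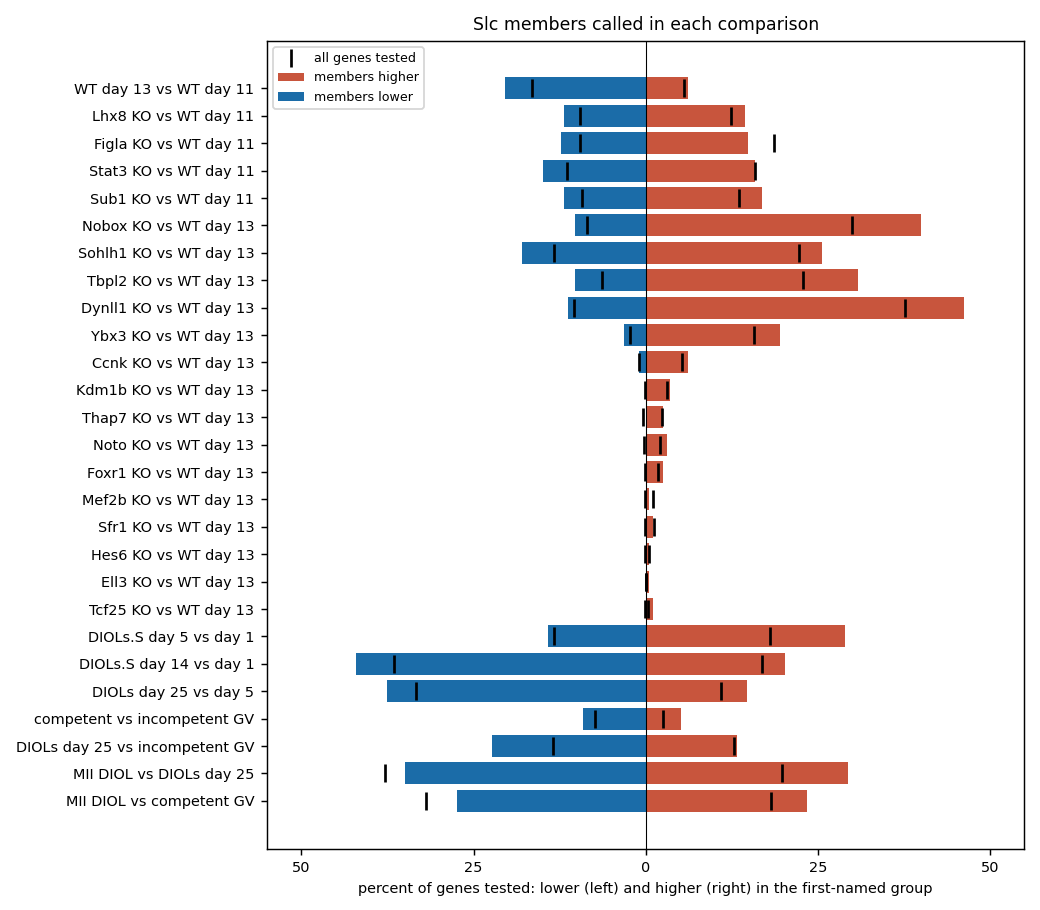
Bars give the percent of tested members called lower (left, blue) and higher (right, red) in the first-named group of each comparison, and black ticks the same percent over all genes tested. Bars are longest for the Dynll1 and Nobox knockouts among higher calls and for day 14 of DIOLs.S among lower calls.

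The Lhx8 and Nobox comparisons have no library in common, so their members can be set side by side. Of the members lower in the Lhx8 knockout 11 of 23 were lower in the Nobox knockout (47.8%), which is 55.0% of the 20 lower there. Over all genes the shares were 42.2% and 47.0%. These 11 were Slc6a7, Slc30a3, Slc45a3, Slc25a48, Slc25a1, Slc24a3, Slc25a35, Slc9a3, Slc23a3, Slc17a3 and Slc35e4. The call of Slc35e4 in the Lhx8 knockout ended without replicate 1 of the knockout, at an adjusted limma p of 0.11, and without replicate 1 of WT, at 0.18. Of the members higher in the Lhx8 knockout 11 of 28 were higher in the Nobox knockout (39.3%), which is 14.1% of the 78 higher there, and over all genes the shares were 49.8% and 20.6%.

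In DIOLs.S Slc29a1 and Slc16a3 were high on day 1 and near 0 on day 14, while Slc6a7, Slc6a9 and Slc30a3 had their highest libraries on day 14. By day 14 of DIOLs.S 40 members were higher and 83 lower than on day 1, of 197 tested, beside 53.3% of all genes called, 16.8% higher and 36.5% lower. Among other genes that pass the members' level rule 55.9% were called, 18.1% higher and 37.8% lower. On day 5 against day 1 the counts of members were 57 higher and 28 lower (31.4% of all genes called, 18.1% higher and 13.3% lower). Monocarboxylate carriers had 1 higher and 7 lower of 10 on day 14, amino acid carriers 5 and 12 of 27, mitochondrial carriers 6 and 13 of 30, and zinc and other metal carriers 3 and 12 of 28. Growing-oocyte markers summed to 78418 ± 2375 TPM on day 14 and 337 ± 30.4 TPM on day 1 (SD, n = 2 each), and somatic markers to 67.7 ± 21 and 289 ± 144 TPM. The TPM of all genes analysed summed to 668178 and 668423 on day 14 and 520945 and 520838 on day 1. On days 3, 5 and 7 these sums lay between 535384 and 564434. The part of this difference in the changes between day 1 and day 14 was not tested.

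Slc6a7 had 1.1 and 1.81 TPM on day 1 of DIOLs.S, 50.4 and 41.3 on day 3, 63.8 and 60.4 on day 5, 64.1 and 111 on day 7 and 259 and 267 on day 14. Day 14 stood above day 1 by 6.76 ± 0.17 on the log2 scale (adjusted p = 2e-17). Slc6a9 had 13.5 and 13.5 TPM on day 1, 30.7 and 29.8 on day 3, 54.8 and 47.8 on day 5, 98.4 and 122 on day 7 and 284 and 285 on day 14 (4.30 ± 0.11, adjusted p = 1.4e-17). Slc30a3 had 36.7 and 49.0 TPM on day 1, values of 135 to 204 TPM on days 3, 5 and 7, and 617 and 619 TPM on day 14 (3.83 ± 0.13). Each of these 3 had its highest libraries on day 14. Slc45a3 had 253 and 276 TPM on day 14 and 11.1 and 9.36 TPM on day 1 (4.57 ± 0.12). Slc25a48 had 272 and 276 TPM on day 14 and 3.52 and 4.57 TPM on day 1 (5.78 ± 0.19), and Slc24a3 had 54.4 and 62.5 TPM against 0.09 and 0.12 TPM (5.75 ± 0.16).

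Slc29a1, Slc16a3, Slc38a4 and Slc38a2 fell between day 1 and day 14. Slc29a1, the nucleoside transporter, had 224 and 243 TPM on day 1, 142 and 146 on day 3, 85.0 and 98.9 on day 5, 19.0 and 18.3 on day 7 and 0 and 0.37 on day 14 (day 14 minus day 1, -7.64 ± 0.27). Slc16a3, the lactate exporter MCT4, fell earlier, with 207.5 and 176.5 TPM on day 1, 16.7 and 18.4 on day 3, and 0.93 and 0.35 on day 14 (-6.90 ± 0.38). Slc38a4 had 1.91 and 2.53 TPM on day 14 and 234 and 267.5 TPM on day 1 (-6.29). Slc38a2 had 5.12 and 4.5 TPM on day 14, against 107 and 118 TPM on day 1 (-4.29 ± 0.42). Slc28a3, a concentrative nucleoside transporter, passed through a maximum, with 0.77 and 0.84 TPM on day 1, 43.1 and 45.8 on day 5 and 0.33 and 0.99 on day 14. Day 5 stood above day 1 by 4.65 ± 0.21. Slc28a3 met the rule of 5 TPM only through induced-cell libraries in which it was high, so this rise is given as a description. Slc18a2 differed between the day-7 libraries, at 172 and 42.5 TPM. The somatic marker sum differed too, at 529 and 2260 TPM in order of size, not of replicate.

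In the series labelled DIOLs, 29 members were higher and 74 lower on day 25 than on day 5 (44.3% of all genes called, 10.9% higher and 33.4% lower), and 40 and 53 after rescaling. The TPM of all genes analysed summed to 678301 and 677908 on day 5. On days 10, 15 and 25 these sums lay between 590902 and 635175. The part of this difference in the changes was not tested. Mitochondrial carriers had 1 higher and 15 lower of 30. Slc25a3 had 752 and 723 TPM on day 5, 481 and 486 on day 10, 338 and 352 on day 15 and 227 and 199.7 on day 25 (day 25 minus day 5, -1.79 ± 0.09). Slc29a1 had 1.82 and 1.57 TPM on day 25 and 47.8 and 48.7 TPM on day 5 (-4.19). Slc22a17, a receptor for lipocalin-bound iron, had 11.5 and 9.34 TPM on day 25 and 123 and 128 TPM on day 5 (-3.48). Higher carriers included Slc6a4, with 37.1 and 41.2 TPM on day 25 and 1.41 and 1.66 TPM on day 5 (3.98), and Slc25a48, with 341 and 319.7 TPM against 17.0 and 23.4 TPM (3.98). Slc3a2, the heavy chain shared by several amino acid exchangers, had 231 and 234 TPM on day 25 and 52.8 and 53.3 TPM on day 5 (2.11 ± 0.12).

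The DIOLs share no library with the WT comparison. Of the members higher in WT of day 13 than of day 11, 8 of 12 were higher on day 25 of DIOLs (66.7%), which is 27.6% of the 29 higher there, against 59.6% and 31.8% over all genes. Of those lower, 23 of 40 were lower there too (57.5%, and 31.9% of 72 tested in both), against 66.7% and 34.7% over all genes. For day 14 of DIOLs.S the counts were 10 of 12 higher (83.3%, and 25.0% of 40) and 32 of 40 lower (80.0%, and 39.5% of 81). All genes gave 68.6% and 23.7% for higher and 73.4% and 34.7% for lower.

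**Figure D4:**
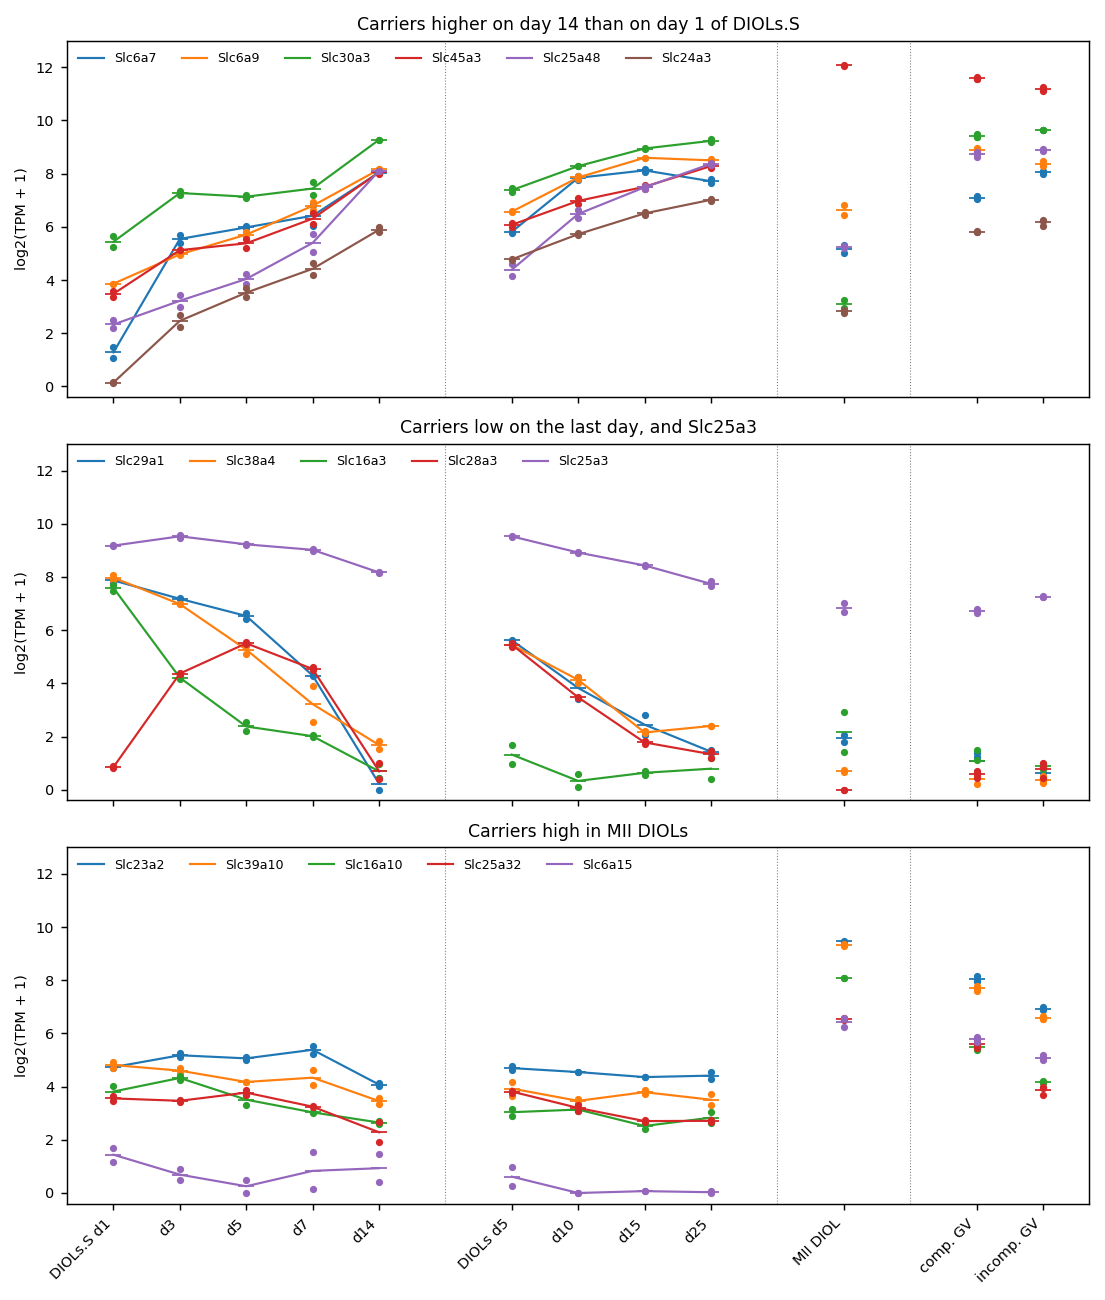
Points are single libraries and bars or lines group means, as log2(TPM + 1), for carriers by day in DIOLs.S and DIOLs, then in MII DIOLs, competent GV and incompetent GV oocytes. Slc6a7 to Slc24a3 (top) climb through the DIOLs.S days, Slc29a1, Slc38a4 and Slc16a3 (middle) decline, and Slc23a2 to Slc6a15 (bottom) are highest in MII DIOLs.

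Competent GV oocytes had 10 members higher and 18 lower than incompetent ones, beside 9.96% of all genes called, 2.54% higher and 7.42% lower. Zinc and other metal carriers had 2 higher and 5 lower of 28, and mitochondrial carriers 1 and 4 of 30. Slc25a32, a mitochondrial folate and FAD carrier, had 42.4, 55.0 and 46.3 TPM in competent oocytes and 14.8, 14.5 and 12.0 TPM in incompetent ones (1.73 ± 0.15, adjusted p = 1.4e-08). Slc16a10, a carrier of aromatic amino acids, had 40.7, 48.6 and 43.9 TPM in competent oocytes and 16.6, 17.4 and 17.0 TPM in incompetent ones (1.33 ± 0.13). Slc23a2, the vitamin C transporter SVCT2, had 249, 285 and 249 TPM in competent oocytes and 125, 119 and 116 TPM in incompetent ones (1.11 ± 0.09, adjusted p = 6e-09). Slc39a10 had 192, 222 and 205 TPM in competent oocytes and 100.7, 91.6 and 91.9 TPM in incompetent ones (1.11 ± 0.14, adjusted p = 2.9e-06). All 3 competent libraries were higher for these 4 genes, which was a condition for naming such changes. Slc45a4, of the same family as Slc45a3, had 1.57, 0.86 and 2.11 TPM in competent oocytes and 18.6, 17.1 and 14.3 TPM in incompetent ones (-2.84 ± 0.15). Slc27a4, a fatty acid carrier, had 1.99, 1.93 and 2.59 TPM in competent oocytes and 18.2, 17.7 and 14.3 TPM in incompetent ones (-2.48 ± 0.11). Slc39a1, a zinc importer of which 21.8% of 50-base stretches occur in other genes, had 2.69, 2.25 and 2.23 TPM in competent oocytes and 23.9, 26.1 and 15.5 TPM in incompetent ones (-2.72 ± 0.19).

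Against incompetent GV oocytes, day 25 of DIOLs had 26 members higher and 44 lower (26.3% of all genes called, 12.8% higher and 13.5% lower). Slc45a3 had 331 and 292 TPM in DIOLs, against 2223, 2261 and 2429 TPM in GV oocytes (-2.88 ± 0.11, adjusted p = 5.7e-14). Slc39a10 had 8.89 and 12.1 TPM in DIOLs and 100.7, 91.6 and 91.9 TPM in GV oocytes (-3.07 ± 0.16). Slc6a15, a neutral amino acid transporter, had 0 and 0.04 TPM in DIOLs and 31.0, 32.4 and 35.4 TPM in GV oocytes (-5.06 ± 0.34). Slc39a8, another zinc importer, was listed at 0 in both DIOL libraries and had 20.8, 22.6 and 25.5 TPM in GV oocytes. All 4 were lower in DIOLs than in GV oocytes, though Slc45a3 was still among the 10 highest members there. Slc27a2 was higher in DIOLs, with 20.5 and 21.0 TPM, against 0.19, 0.07 and 0.14 TPM in GV oocytes (4.26 ± 0.16). Slc6a9 had 371 and 352 TPM in DIOLs and 351, 314 and 317 TPM in GV oocytes (0.14 ± 0.10, adjusted p = 0.24), a difference that missed the threshold.

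MII DIOLs differed from day 25 of DIOLs in 58 members higher and 69 lower, beside 57.6% of all genes called, 19.8% higher and 37.8% lower, and in 76 and 55 after rescaling. The monocarboxylate class, which holds Slc16a10, had 6 higher and 0 lower of 10 by limma, and zinc and other metal carriers 10 and 10 of 28. The libraries hold RNA selected by its poly(A) tail, and tail lengths change at maturation, so a longer or shorter tail and more or less RNA cannot be told apart. The somatic marker sums were 452 and 802 TPM in MII DIOLs and 28.8 ± 2.2 TPM on day 25.

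Slc30a3 had 6.7 and 8.62 TPM in MII DIOLs, against 624 and 580 TPM in DIOLs of day 25 (-6.13 ± 0.13, adjusted p = 3.8e-19). Slc25a1 had 11.7 and 16.7 TPM in MII DIOLs and 257 and 259 TPM in DIOLs (-4.11), and Slc25a35 had 1.88 and 2.2 TPM against 90.1 and 85.5 TPM (-4.87 ± 0.12). Slc39a10 stood at the other end, with 628 and 652 TPM in MII DIOLs and 8.89 and 12.1 TPM in DIOLs (5.82 ± 0.18, adjusted p = 5e-17). Slc23a2 had 714 and 692 TPM in MII DIOLs and 22.5 and 18.3 TPM in DIOLs (5.04 ± 0.11, adjusted p = 5.5e-19). Slc16a10 had 270.3 and 268 TPM in MII DIOLs and 7.25 and 5.16 TPM in DIOLs (5.24 ± 0.16), and Slc6a15 had 95.7 and 74.9 TPM against 0 and 0.04 TPM (6.39 ± 0.37). Changes were chosen for naming among those whose libraries do not overlap, so the lack of overlap here is no result. Slc7a11 had 177.5 and 160.5 TPM in MII DIOLs and 20.7 and 16.2 TPM in DIOLs (3.13 ± 0.16).

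The scale of the MII libraries is shifted by -1.039 in log2 against DIOLs and by -0.927 against competent GV oocytes. Against competent GV oocytes MII DIOLs had 46 members higher and 54 lower (50.2% of all genes called, 18.3% higher and 31.9% lower), and 85 and 46 after rescaling. Slc30a3 had 6.7 and 8.62 TPM in MII DIOLs and 717, 662 and 657 TPM in competent GV oocytes (-6.30 ± 0.12, adjusted p = 7.1e-20). Slc39a6 had 24.0 and 20.2 TPM in MII DIOLs and 375, 383 and 368 TPM in competent GV oocytes (-4.03 ± 0.09). The partner importer Slc39a10 had 628 and 652 TPM in MII DIOLs and 192, 222 and 205 TPM in competent GV oocytes (1.63 ± 0.16, adjusted p = 1.2e-08). Thus 1 zinc importer was low and the other high in MII DIOLs. Slc16a6, of the monocarboxylate family, had 39.4 and 38.2 TPM in MII DIOLs and 0.92, 0.76 and 0.89 TPM in GV oocytes (4.42 ± 0.20). Slc44a1, a choline transporter, had 134 and 119 TPM in MII DIOLs and 15.0, 15.5 and 15.4 TPM in GV oocytes (2.97 ± 0.12). Slc6a9 had 113 and 85.9 TPM in MII DIOLs and 494.7, 480.5 and 452 TPM in GV oocytes (-2.26 ± 0.10).

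Of the 10 members higher in competent than in incompetent GV oocytes, 9 were higher in MII DIOLs than in DIOLs of day 25 (90%), which is 15.5% of the 58 higher there. Over all genes 189 of 295 were (64.1%), which is 8.22% of the 2298 higher there. The 9 were Slc16a10, Slc1a1, Slc23a2, Slc25a32, Slc30a5, Slc38a2, Slc39a10, Slc44a5 and Slc5a12. The remaining one, Slc9b1, an exchanger of sodium for protons, had 9.93 and 5.63 TPM in MII DIOLs and 7.06 and 6.87 TPM in DIOLs of day 25 and was not called (0.10 ± 0.21, adjusted p = 0.72). That value and the overlaps given here are before rescaling and depend on the scale. The scale is shifted by -1.039 in log2 between MII DIOLs and DIOLs of day 25. Of the members lower in competent oocytes 13 of 18 were lower in MII DIOLs (72.2%, and 18.8% of 69), against 72.1% and 14.1% over all genes. The call of Slc30a5 in competent oocytes, at 1.06, fell under the fold threshold without replicate 2 of the competent or replicate 3 of the incompetent group, at 0.977 and 0.995.

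**Figure D5:**
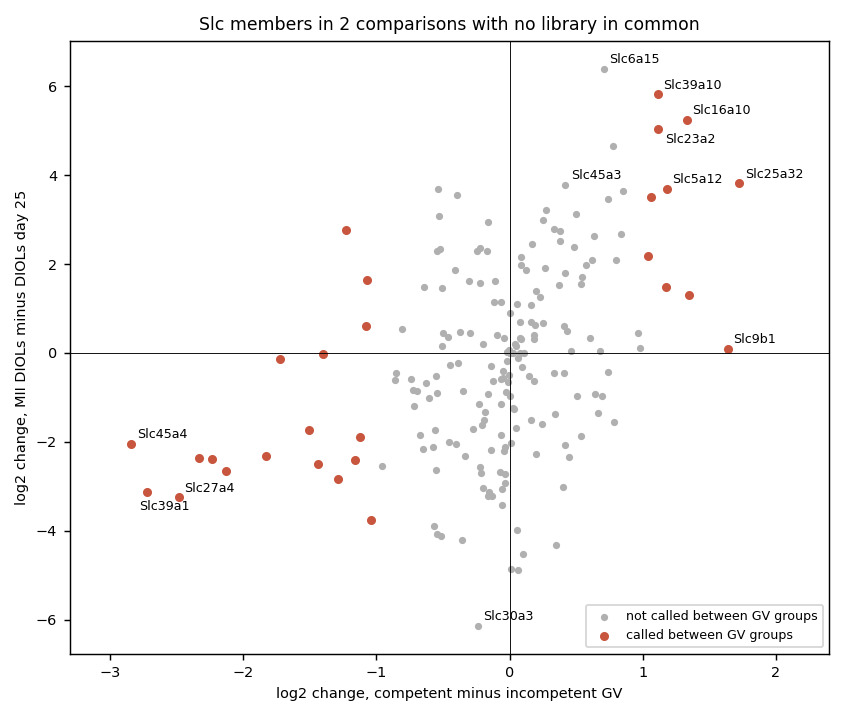
Each point is a member, with its log2 change between competent and incompetent GV oocytes on the x axis and between MII DIOLs and DIOLs of day 25 on the y axis, which have no library in common. Red points were called between the GV groups; Slc39a10, Slc16a10, Slc23a2 and Slc25a32 lie at the upper right, and Slc45a4, Slc39a1 and Slc27a4 at the lower left.

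Slc45a3 was the most abundant member in GV oocytes and MII DIOLs. It made up 40.8 ± 0.42% of the summed Slc TPM in MII DIOLs (SD, n = 2), 30.2 ± 0.51% in competent and 24.3 ± 1.0% in incompetent GV oocytes (SD, n = 3 each). The share was 5.12 ± 0.26% on day 25 of DIOLs, 2.7 ± 0.09% in WT of day 13 and 0.96 ± 0.02% in WT of day 11. In TPM it had 4253 and 4354 in MII DIOLs, against 331 and 292 on day 25 of DIOLs (3.79 ± 0.12, adjusted p = 1.1e-16). Between competent and incompetent GV oocytes it differed by 0.42 ± 0.10 (adjusted p = 0.0018) and between MII DIOLs and competent GV oocytes by 0.48 ± 0.11 (adjusted p = 0.00057), both under the fold threshold. The value of 0.48 was not rescaled and depends on the scale, which is shifted by -0.927 in log2 between those groups. Without Slc45a3 the summed Slc TPM was 6245 ± 4.4 in MII DIOLs, 7126 ± 81 in competent and 7166 ± 69 in incompetent GV oocytes, 5763 ± 194 on day 25 of DIOLs and 5726 ± 105 in WT of day 13.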

How the data were processed

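The series holds 71 samples in 34 groups, of which 68 in 33 groups were matched to columns by name. No column carries the name of the remaining 3 (primordial-follicle oocytes), which were not analysed here, and 80 columns of no sample were not used. The deposited values are TPM per gene symbol. STAR 2.6.0, featureCounts 1.6.0 and the build mm10 are named in the submitters' processing notes. How reads shared between genes were handled is not given in the sources used here. The deposited table ends within a row: 15140 genes remained, 14555 of them in GENCODE M21, and members lie on chromosomes 1 to 5 and 10 to 19. Genes elsewhere were not analysed here.

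Changes were computed on log2(TPM + 1), which understates the changes of low genes, with limma 3.58.1 in R 4.3.3 (trend, robust, Benjamini-Hochberg over all genes tested). In vitro oocytes formed 1 fit (42 libraries, 21 groups, 12306 genes with at least 1 TPM in 2 libraries, 195 members) and DIOLs with GV oocytes another (26 libraries, 12 groups, 11603 genes, 197 members). Groups of 2 libraries share the spread of their fit. The fit was tested on simulated data. Alternatives were a pseudocount of 0.1, no filter, median-of-ratios rescaling, 1 fit over all samples, other level thresholds, a replicate block and leaving out each library.

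Members and lists were chosen with earlier results of these data known. Named members were called, had non-overlapping libraries and a mean of at least 10 TPM in the higher group, taking the largest changes each way, with the 10 highest by level in 5 groups and a short list of oocyte carriers. Slc1a1, Slc44a5, Slc17a3 and the members of the direct knockout comparisons were named after their values were seen. Sequence shared with other genes was counted over 50-base stretches of annotated transcripts: 8 members shared 20% or more.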

Additional observations from a re-analysis of the deposited data

How the results depend on the processing

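Among 27 counts of called members and 2 direct knockout comparisons, most stayed within 1.5 times of the value given. The exceptions were the knockouts with few calls. With a pseudocount of 0.1, calls numbered 11 for Kdm1b (against 7), 3 for Mef2b (against 1) and 5 for Sfr1 (against 2). Mef2b had 2 with no filter, with rescaling and in 1 fit over all samples, where Ell3 had 0 (against 1). Rescaling left 3 for Foxr1 (against 5). Without the Sohlh1 libraries, an alternative added after seeing the data, there were 11 for Kdm1b, 9 for Thap7, 8 for Foxr1, 4 for Mef2b, 4 for Sfr1 and 2 for Hes6. Leaving out 1 library gave 8 to 12 calls for Ccnk (against 14), 3 to 6 for Kdm1b, 2 to 5 for Noto, 2 to 4 for Foxr1, 1 to 2 for Mef2b, 1 to 3 for Sfr1, 0 for Ell3, 1 to 3 for Tcf25 and 14 to 21 for Lhx8 against Figla. In WT of day 13 against day 11, members present in GV oocytes and called lower numbered 7 with a threshold of 10 TPM (against 14). Those low in GV oocytes numbered 8 with membership at 10 TPM (against 13). The causes were not tested.

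Of 345 changes of named members, 14 lost their call with a pseudocount of 0.1, 2 with rescaling and 1 with no filter, and leaving out 1 library ended a call in 55 of 1452 cases. Those lost with the pseudocount included Slc25a48 (adjusted p = 0.1) and Slc23a3 (0.088) in WT and Slc6a7 in the Ybx3 knockout (0.23). Replicate numbers were taken as names: correlations of same-numbered deviations ran between -0.060 and 0.076 over 210 pairs of in vitro groups, and between -0.219 and 0.384, with 1 over 0.1, over 66 pairs of DIOL and GV groups. A replicate block gave 97 calls for Nobox and 123 for day 14 of DIOLs.S and changed no count by over 1.5 times. Depth is unknown, so low values carry no counting interval.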
